A study of Homo sapiens with 4 samples.

Results

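The androgen-induced genes of prostate cells are genes known to be raised by androgen in prostate epithelium, such as TMPRSS2, FKBP5 and SLC45A3. They were taken from a list of 42 genes that leaves out the kallikreins and the lineage factors, and a gene entered the comparisons where its RPKM was at least 1 in at least 1 library. RPKM is the number of reads scaled to transcript length and to all mapped reads, so it can be compared between genes. Of the 42 genes, 41 had a value and 39 passed, out of 14626 genes that passed among 19801. HPGD was not analysed here. STEAP4, a metalloreductase, reached at most 0.56 RPKM and BMPR1B, a receptor for bone morphogenetic proteins, at most 0.06 RPKM, and both were left out as low. The members nearest above the limit were IQGAP2, with at most 1.01 RPKM, and MAK, with at most 1.20 RPKM.

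The libraries came from LNCaP, a human prostate cancer line that responds to androgen. The cells were transfected for 24 h with an empty vector or with the AR1-651 plasmid, and were then given ailanthone (AIL), a plant quassinoid, or no AIL for 12 h. The 4 conditions thus combined each plasmid with AIL and without it, and each had 1 library. The transfection was transient, and the medium held serum, with no added androgen named in the labels. With 1 library per condition there was no replicate error and no test was possible, so every difference below compares libraries. A difference is that of log2(RPKM + 1), a scale that understates the change of genes with low levels, and a gene was called higher or lower where this difference amounted to 2-fold or more.

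Androgens are steroid hormones that control the growth and the secretory function of the prostate epithelium. Through DNA sites called androgen response elements, many of them in distant enhancers, they raise genes for secretion, lipid and sugar metabolism, differentiation and growth. Genes of this kind are widely used as a readout of androgen signalling in prostate cancer cells, where the signalling can persist when androgen is withdrawn.

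The directions given for AR1-651 below rest on the labels of the libraries, with no check of the transfected gene reported. Luminal epithelial markers summed to 1291 to 1949 RPKM over the libraries, against at most 0.21 RPKM for the basal keratin KRT14, at most 0.94 for the leukocyte gene PTPRC and 2.21 to 5.02 for the 3 stromal markers. The series' own design text calls the RNA retinal, while the sample labels say LNCaP. The 3 retinal markers with a value summed to 4.20 to 7.71 RPKM, of which CRX made up 3.24 to 5.77. The library labelled AR1-651 stood apart in composition: ribosomal protein genes took 33.0% of its summed RPKM against 22.3% to 25.5% in the other libraries, and the median difference of all genes between it and empty vector was -0.30. Median-ratio scaling, which aligns the bulk of the genes, would take -0.27 out of that comparison. In bulk RNA, fewer cells that express a gene and less of its RNA per cell cannot be told apart.

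Without AIL, 11 of the 39 androgen-induced genes were higher in the library labelled AR1-651 than with empty vector, against 4.01% of all genes tested, and 2 were lower, against 11.6%. The 11 were TMPRSS2, FKBP5, SLC45A3, EAF2, SGK1, ELL2, C1orf116, PMEPA1, TRPM8, SORD and ALDH1A3, and the 2 lower ones were LIFR and ELK4. TRPM8 reached 1 RPKM only in the library labelled AR1-651, and MAK only in the libraries given that plasmid. The filter thus favoured a higher level of TRPM8 and MAK there, so they add no support to the counts and shares. The median difference was 0.65 for the androgen-induced genes and -0.30 for all genes, and 71.8% of the androgen-induced genes lay above 0 against 32.2% of all genes. With median-ratio scaling, 17 were higher and 1 lower, and the shares over all genes became 7.29% and 5.59%.

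With AIL in both arms, 4 androgen-induced genes were higher in the library labelled AR1-651 + AIL than with empty vector + AIL, against 1.46% of all genes, and none was lower, against 3.53%. These were TMPRSS2, FKBP5, C1orf116 and MPHOSPH9. The median difference was 0.47, against -0.03 for all genes, and 76.9% of the androgen-induced genes lay above 0 against 46.9%. This comparison shares no library with the one without AIL. Taking these comparisons as a pair, 24 of the 39 genes were higher in both and 5 lower in both at any size, which is 61.5% and 12.8%, against 21.7% and 41.3% of all genes. TMPRSS2, FKBP5 and C1orf116 were called higher in both, among 40 such genes of all 14626. MAK, TRPM8 and IQGAP2 are among the 24, and each reached 1 RPKM only in libraries given AR1-651. The filter thus favoured that direction for them, here and in the 76.9% above 0.

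The differences with AIL went in both directions. In empty vector cells, 7 were lower with AIL, against 9.03% of all genes, and 6 were higher, against 9.53%. In the libraries labelled AR1-651, 13 were lower with AIL, against 5.74% of all genes, and 3 were higher, against 14.9%. The median difference with AIL was -0.39 in empty vector cells, where that of all genes was -0.02, and -0.36 in the AR1-651 pair, where that of all genes was 0.13. Under median-ratio scaling the AR1-651 pair gave 14 lower and 2 higher members, and 8.62% and 10.8% of all genes. When the library labelled AR1-651 + AIL was set against empty vector, 8 members were higher, against 12.6% of all genes, and 5 lower, against 15.8%.

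**Figure D1:**
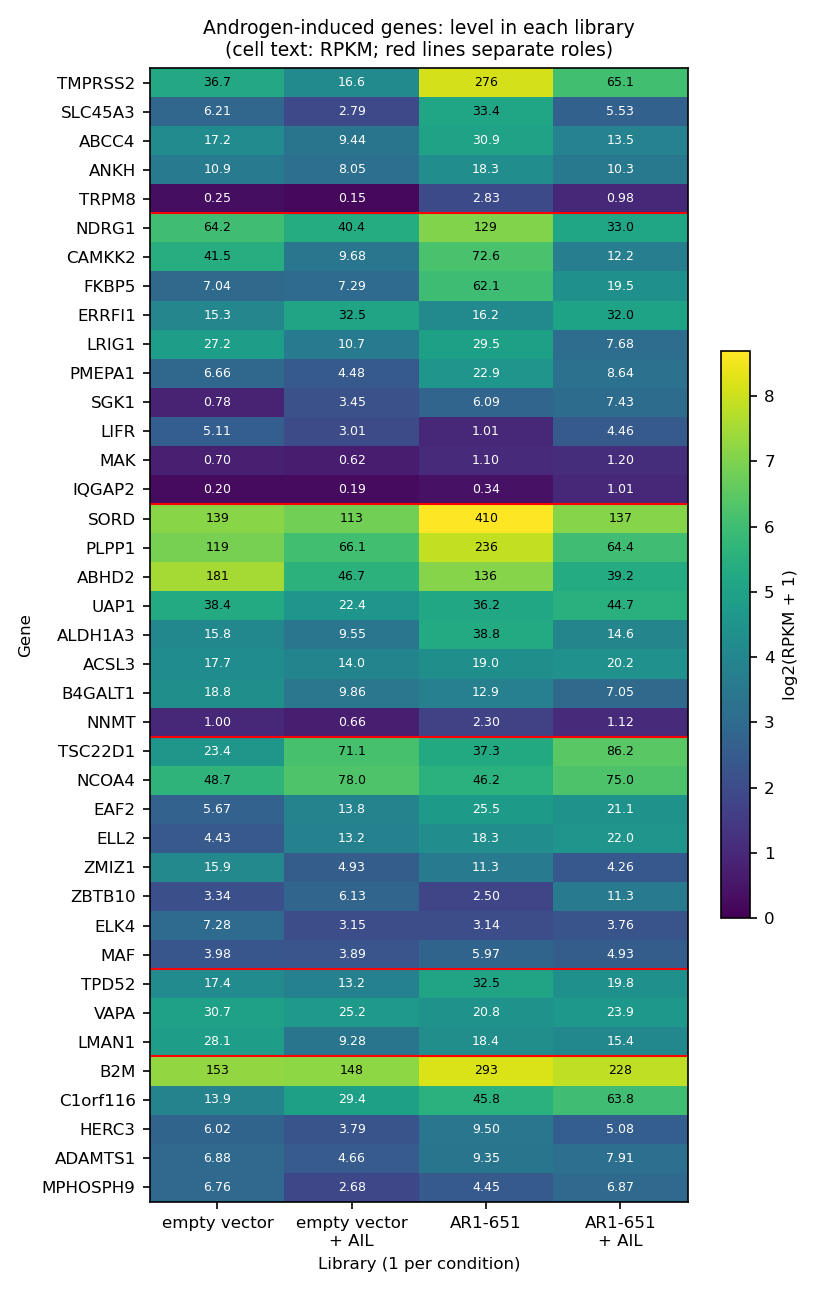
Level of each of the 39 androgen-induced genes (rows, grouped by role) in the 4 libraries (columns). Colour gives log2(RPKM + 1) and the text in each cell RPKM. The library labelled AR1-651 held the highest level of 20 genes and the empty vector + AIL library the lowest level of 21.

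**Figure D2:**
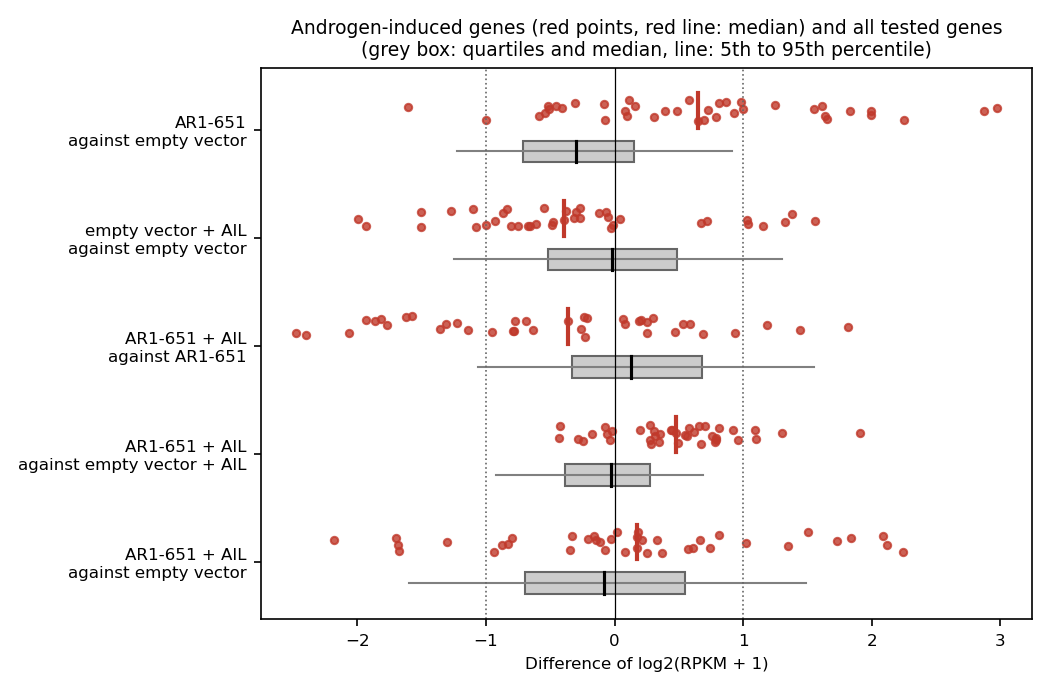
Differences of log2(RPKM + 1) in the 5 comparisons, for the 39 androgen-induced genes (red points, with the median as a red line) and all 14626 genes tested (grey box for the quartiles and median, line from the 5th to the 95th percentile). Dotted lines mark 2-fold. The red median lies above the black one in both comparisons of AR1-651 at equal AIL treatment, 0.65 against -0.30 without AIL and 0.47 against -0.03 with it.

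Promoters are shown for 6 members that stand for the patterns described below. FKBP5 and PMEPA1 were higher with AR1-651, and theirs were the only ones of 29 matched promoters with an androgen response half-site. SGK1 and C1orf116 were higher with AR1-651, and were called higher with AIL in empty vector cells but not in the AR1-651 pair. CAMKK2 and ABHD2 were lower with AIL in both kinds of cell. The sequences are RefSeq's on GRCh38.p14, cover 250 bases before the first listed start to 30 bases after it, and have the searched motifs in capitals. FKBP5 lies at chr6:35728554-35728833, PMEPA1 at chr20:57711443-57711722, SGK1 at chr6:134318083-134318362, C1orf116 at chr1:207032727-207033006 and CAMKK2 at chr12:121296680-121296959, all on the minus strand, and ABHD2 at chr15:89040748-89041027 on the plus strand.
FKBP5: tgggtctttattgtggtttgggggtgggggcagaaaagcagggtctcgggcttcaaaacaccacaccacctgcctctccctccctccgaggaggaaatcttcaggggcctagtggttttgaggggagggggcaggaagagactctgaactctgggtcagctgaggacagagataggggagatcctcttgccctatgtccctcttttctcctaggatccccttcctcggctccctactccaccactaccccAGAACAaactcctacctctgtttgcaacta
PMEPA1: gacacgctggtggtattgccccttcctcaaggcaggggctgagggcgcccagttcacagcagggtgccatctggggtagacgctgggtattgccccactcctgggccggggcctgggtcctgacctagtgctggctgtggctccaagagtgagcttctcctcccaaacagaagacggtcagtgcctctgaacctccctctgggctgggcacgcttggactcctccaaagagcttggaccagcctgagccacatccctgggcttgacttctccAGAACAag
SGK1: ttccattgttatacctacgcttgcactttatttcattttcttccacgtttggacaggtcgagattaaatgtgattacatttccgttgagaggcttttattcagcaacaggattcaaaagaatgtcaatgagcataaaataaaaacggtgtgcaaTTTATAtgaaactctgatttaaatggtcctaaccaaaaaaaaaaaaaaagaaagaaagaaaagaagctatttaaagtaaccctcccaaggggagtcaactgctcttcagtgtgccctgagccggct
C1orf116: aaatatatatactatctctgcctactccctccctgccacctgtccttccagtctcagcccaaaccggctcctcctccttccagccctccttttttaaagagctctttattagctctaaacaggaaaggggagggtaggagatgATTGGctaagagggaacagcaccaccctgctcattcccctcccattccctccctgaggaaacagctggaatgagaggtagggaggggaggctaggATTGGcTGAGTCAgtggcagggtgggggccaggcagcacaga
CAMKK2: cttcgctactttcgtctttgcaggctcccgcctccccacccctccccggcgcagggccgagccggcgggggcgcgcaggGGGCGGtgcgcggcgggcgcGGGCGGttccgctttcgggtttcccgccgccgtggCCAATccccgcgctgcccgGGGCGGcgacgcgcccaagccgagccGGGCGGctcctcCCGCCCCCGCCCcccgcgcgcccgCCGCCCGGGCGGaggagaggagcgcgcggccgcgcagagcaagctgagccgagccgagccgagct
ABHD2: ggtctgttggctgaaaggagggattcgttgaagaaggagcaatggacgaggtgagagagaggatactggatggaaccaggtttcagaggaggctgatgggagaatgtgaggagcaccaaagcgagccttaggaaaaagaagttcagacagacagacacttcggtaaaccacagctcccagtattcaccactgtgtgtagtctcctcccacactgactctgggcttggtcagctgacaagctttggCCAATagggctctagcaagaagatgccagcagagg

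Motifs were searched on both strands in the window of 300 bases around each start, for 11173 genes tested. The full androgen response element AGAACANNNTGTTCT was found in 0 of the 11173 promoters and so in none of the 29 members. The half-site AGAACA was in 9.14% of all promoters and in 2 of 29 members, in FKBP5 at position 251, the first transcribed base, and in PMEPA1 at position 273, counted from the first base printed. The GC box GGGCGG was in 68.3% of all promoters and 18 members, and 8 copies are in the CAMKK2 window. The CCAAT box was in 37.4% of promoters and 14 members, C1orf116, CAMKK2 and ABHD2 among them. The TATA box TATAAA was in 5.74% and 3 members, of which SGK1 is printed, and the AP-1 site TGACTCA was in 2.97% and 2 members, of which C1orf116 is printed. The cyclic AMP response element TGACGTCA was in 3.26% and 1 member, MAF. The full element contains the half-site, and no other motif of the list contains another. These matches describe letters near 1 start of each gene, and no distant element was searched.

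Among the surface proteases and transporters, all 5 members were above empty vector in the library labelled AR1-651, 3 of them by 2-fold or more, and all 5 were below their AR1-651 level after AIL. Of all genes, 32.2% lay above empty vector, 4.01% were called higher, and 42.5% lay below their AR1-651 level after AIL. TMPRSS2, a transmembrane serine protease whose promoter is often fused to ERG in prostate cancer, stood at 36.7 RPKM with empty vector and 16.6 after AIL, and at 276 with AR1-651 and 65.1 after AIL. It was 7.51 times as high with AR1-651 as with empty vector, a difference of 2.87, and with AIL in both arms the difference was 1.91. It was lower with AIL in both kinds of cell, at -1.10 with empty vector and -2.07 with AR1-651. With AIL, the AR1-651 library still lay above untreated empty vector, by 0.81.

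SLC45A3, a prostate transporter also called prostein, stood at 6.21, 2.79, 33.4 and 5.53 RPKM in the same order of libraries, which holds for the lists of 4 values below. It was higher with AR1-651 by 2.25 and lower with AIL there, at -2.40, which put the AR1-651 + AIL level next to that of empty vector, at -0.14. Its difference between the AIL arms was 0.78. TRPM8, a cold-sensing cation channel, was low, at 0.25 and 0.15 RPKM in the empty vector libraries and reached 2.83 with AR1-651 and 0.98 with AR1-651 + AIL. Its difference with AR1-651 was 1.62 without AIL, in the only library where it reached 1 RPKM. ABCC4, an exporter of prostaglandins and cyclic nucleotides, stood at 17.2, 9.44, 30.9 and 13.5 RPKM and was called only for its fall with AIL in the AR1-651 pair, of -1.14. ANKH, a pyrophosphate transporter, ran between 8.05 and 18.3 RPKM and was not called in any of the first 4 comparisons.

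On the log2(RPKM + 1) scale the largest difference with AR1-651 among the 39 genes was that of FKBP5 in the signalling group, a co-chaperone of HSP90 and steroid receptors. By the ratio of RPKM that of TRPM8 was larger, 11.3 times, from the low level given above. FKBP5 stood at 7.04 RPKM with empty vector and 7.29 after AIL, and at 62.2 with AR1-651 and 19.5 after AIL. It was 8.83 times as high with AR1-651, a difference of 2.97, and the difference with AIL in both arms was 1.30. Its difference with AIL was 0.04 in empty vector cells, and it was lower with AIL in the AR1-651 pair, at -1.63. FKBP5 with AR1-651 + AIL was still above untreated empty vector, by 1.35.

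PMEPA1, a negative regulator of TGF-beta signalling, was also highest in the library labelled AR1-651, with 6.66, 4.48, 22.9 and 8.64 RPKM. Its difference with AR1-651 was 1.64 and with AIL in the AR1-651 pair -1.31. SGK1, a kinase related to AKT, stood at 0.78, 3.45, 6.09 and 7.43 RPKM and had another order. It was higher with AR1-651, by 1.99, and also with AIL in empty vector cells, by 1.32, and it was not lower with AIL in the AR1-651 pair, at 0.25.

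NDRG1, a stress and differentiation gene, stood at 64.2, 40.4, 129 and 33.0 RPKM. Its difference with AR1-651 was 0.998, just under the limit, and its difference with AIL was -0.65 with empty vector and -1.94 with AR1-651. CAMKK2, a calcium-dependent kinase that acts on AMPK, stood at 41.5, 9.68, 72.6 and 12.2 RPKM. It was lower with AIL in both kinds of cell, at -1.99 and -2.48, and its difference with AR1-651 was 0.79 without AIL and 0.31 with it. LRIG1, which dampens ERBB receptors, stood at 27.2, 10.7, 29.5 and 7.68 RPKM and was also lower with AIL in both, at -1.27 and -1.81.

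The remaining called genes of the signalling group were not called lower with AIL in either kind of cell. ERRFI1, an inhibitor of EGFR, stood at 15.3, 32.5, 16.2 and 32.0 RPKM, so that it followed AIL and not the vector, with differences with AIL of 1.04 and 0.94. The first was lost, with a lowest value of 0.94, when the trends with transcript length and GC content were removed or ribosomal protein genes were left out. LIFR, the receptor for leukaemia inhibitory factor, stood at 5.11, 3.01, 1.01 and 4.46 RPKM. It was lowest in the library labelled AR1-651, with a difference of -1.60, and higher with AIL there, by 1.44, and both calls were lost when those trends were removed, at -0.92 and 0.69. MAK, a kinase, and IQGAP2, a scaffold, stayed between 0.19 and 1.20 RPKM and were not called.

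Of the 8 metabolic enzymes, 2 were higher with AR1-651 and 4 lower with AIL in the AR1-651 pair, and all 8 lay below 0 with AIL in empty vector cells, 1 of them past 2-fold. The shares of all genes were 4.01%, 5.74%, 51.0% and 9.03%. SORD, which converts sorbitol to fructose, was the member with the highest level in any library: it stood at 139 RPKM with empty vector and 113 after AIL, and at 410.1 with AR1-651 and 137 after AIL. It was higher with AR1-651 by 1.55 and lower with AIL there, at -1.58. ALDH1A3, which makes retinoic acid, stood at 15.8, 9.55, 38.8 and 14.6 RPKM, with differences of 1.24 and -1.36 in the same comparisons. In both genes the level with AR1-651 + AIL lay close to that with untreated empty vector, at -0.02 and -0.11.

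PLPP1, a lipid phosphatase, stood at 119, 66.1, 236 and 64.4 RPKM. Its difference with AR1-651 was 0.98, under the limit, and it was lower with AIL in the AR1-651 pair, at -1.86. ABHD2, a lipid hydrolase, had its highest level with empty vector instead, with 181 RPKM there and 46.7 after AIL, against 136 with AR1-651 and 39.2 after AIL. It was lower with AIL in both kinds of cell, at -1.93 and -1.77, and its difference with AR1-651 was -0.41. The other 4 enzymes were not called in the first 4 comparisons: ACSL3, which activates fatty acids, ran from 14.0 to 20.2 RPKM, UAP1, which makes UDP-GlcNAc, from 22.4 to 44.7, B4GALT1, a galactosyltransferase, from 7.05 to 18.8 and NNMT, which methylates nicotinamide, from 0.66 to 2.30. B4GALT1 was lower with AR1-651 + AIL than with empty vector, at -1.30, a call that was lost at -0.92 when the length and GC trends were removed.

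In the transcription group, 5 of 8 members lay above 0 with AIL in empty vector cells and 5 of 8 in the AR1-651 pair, which is 62.5% each, against 48.3% and 56.2% of all genes. ELL2, an elongation factor, stood at 4.43, 13.2, 18.3 and 22.0 RPKM and was higher both with AR1-651, by 1.83, and with AIL in empty vector cells, by 1.38. EAF2, a partner of ELL proteins, stood at 5.67, 13.8, 25.5 and 21.1 RPKM, with differences of 1.99 and 1.15 in these comparisons. For both the difference with AIL in the AR1-651 pair was small, 0.25 for ELL2 and -0.26 for EAF2. The call of EAF2 with AIL in empty vector cells was lost at 0.93 when the length and GC trends were removed, as was its call between AR1-651 + AIL and empty vector, which went from 1.73 to 0.97.

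TSC22D1, a TGF-beta-stimulated leucine zipper protein, was the only member called higher with AIL in both kinds of cell, against 5.67% of all genes. It stood at 23.4, 71.1, 37.3 and 86.2 RPKM, with differences of 1.56 and 1.19. The latter was lost when the length and GC trends were removed, at 0.69, and with median-ratio scaling. ZBTB10, a zinc finger repressor, stood at 3.34, 6.13, 2.50 and 11.3 RPKM and was higher with AIL in the AR1-651 pair, by 1.82.

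ZMIZ1, a transcriptional coactivator related to the PIAS family, was lower with AIL in both kinds of cell, at -1.51 and -1.22, from 15.9 to 4.93 RPKM with empty vector and from 11.3 to 4.26 with AR1-651. ELK4, an ETS factor, stood at 7.28 RPKM with empty vector and 3.15, 3.14 and 3.76 in the other 3 libraries. Its difference with AR1-651 was -1, exactly at the limit, and was lost with median-ratio scaling and when the length and GC trends were removed, where it came to -0.43. NCOA4, a coactivator and ferritin receptor, ran from 46.2 to 78.0 RPKM and MAF, a leucine zipper factor, from 3.89 to 5.97, and neither was called.

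Among the remaining genes, C1orf116, which encodes the androgen-regulated protein SARG, stood at 13.9 RPKM with empty vector and 29.4 after AIL, and at 45.8 with AR1-651 and 63.8 after AIL. It was higher with AR1-651 without AIL, by 1.65, and with AIL, by 1.09, and higher with AIL in empty vector cells, by 1.03, and its difference with AIL in the AR1-651 pair was 0.47. The call in empty vector cells was lost at 0.93 when ribosomal protein genes were left out. MPHOSPH9, a centriolar protein, stood at 6.76, 2.68, 4.45 and 6.87 RPKM, with a difference of -1.08 with AIL in empty vector cells and of 1.10 with AR1-651 among AIL-treated cells. Both were lost when the length and GC trends were removed, at -0.98 and 0.87. LMAN1, a cargo receptor of the secretory pathway, stood at 28.1, 9.28, 18.4 and 15.4 RPKM and was lower with AIL in empty vector cells, at -1.50.

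The other 5 genes of these groups were not called in the first 4 comparisons. B2M, the light chain of MHC class I, ran from 148 to 293 RPKM, and its difference with AR1-651 was 0.93. TPD52, a vesicle-trafficking protein, ran from 13.2 to 32.5 RPKM, VAPA, an endoplasmic reticulum tether, from 20.8 to 30.7, HERC3, a ubiquitin ligase, from 3.79 to 9.50 and ADAMTS1, a secreted protease, from 4.66 to 9.35.

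The library labelled AR1-651 held the highest level of 20 of the 39 genes, or 51.3% against 14.9% of all genes, and the empty vector + AIL library the lowest level of 21, or 53.8%, also against 14.9%. The 11 genes higher with AR1-651 were divided into 2 kinds by their call with AIL in the AR1-651 pair. In 6 of them, TMPRSS2, FKBP5, SLC45A3, PMEPA1, SORD and ALDH1A3, the level was called lower with AIL in the AR1-651 pair. In the other 5, C1orf116, EAF2, ELL2, SGK1 and TRPM8, it was not called lower there. TRPM8 was close to the limit, at -0.95, and its RPKM with AIL was 0.35 times that without. That ratio lay between the 0.31 of FKBP5 and the 0.38 of PMEPA1, so the place of TRPM8 depends on the log2(RPKM + 1) scale. Of the second kind, C1orf116, EAF2, ELL2 and SGK1 were also called higher with AIL in empty vector cells. With FKBP5, they were the genes of the 11 still called higher than untreated empty vector in the library labelled AR1-651 + AIL. TMPRSS2, TRPM8 and PMEPA1 also lay above untreated empty vector there, by 0.81, 0.66 and 0.33, under the limit, and SLC45A3, SORD and ALDH1A3 lay below it. The first and the third comparison share the library labelled AR1-651, so that an unusual value in it moves them in opposite directions. Empty vector was the reference for AR1-651, for AIL in empty vector cells and for AR1-651 + AIL. C1orf116, EAF2, ELL2, SGK1 and FKBP5 were lowest in that library, so an unusually low value in it raises all of these differences. How all 586 tested genes called higher with AR1-651 split in this way was not counted. The division can therefore not be read as particular to the androgen-induced genes.

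**Figure D3:**
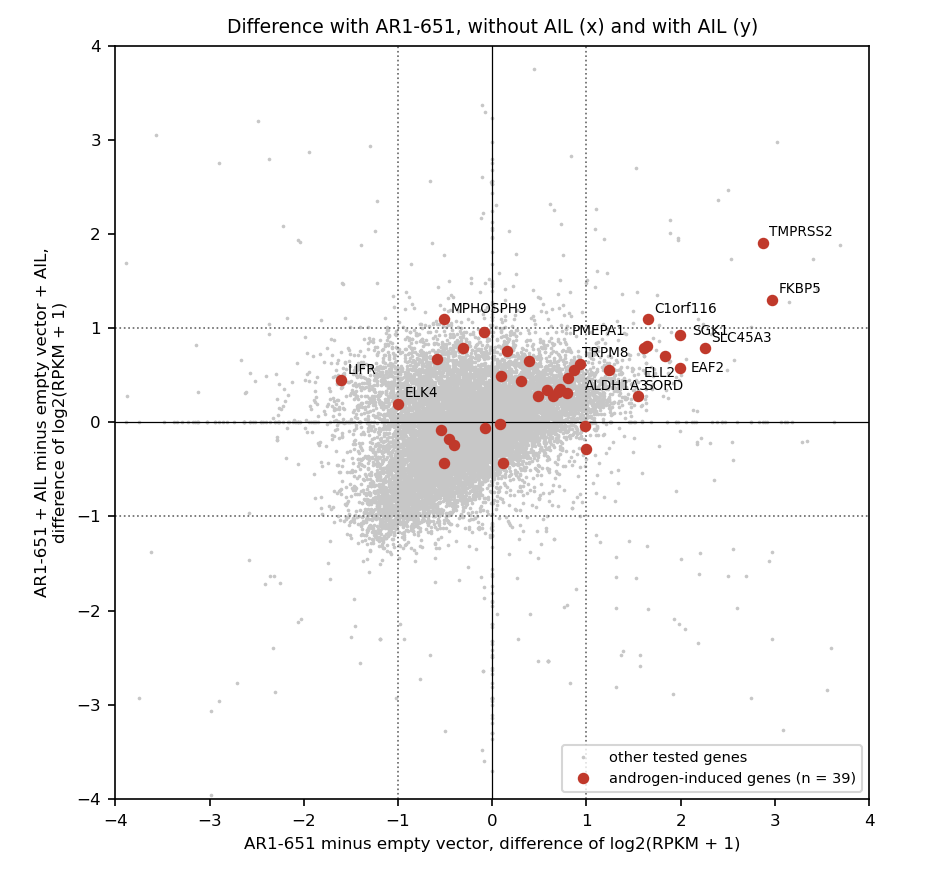
Difference of log2(RPKM + 1) between the libraries labelled AR1-651 and empty vector without AIL (horizontal) and with AIL (vertical), for the 39 androgen-induced genes (red) and the other genes tested (grey, with those beyond the axes not drawn). Dotted lines mark 2-fold, and names are given for members past it in either comparison. TMPRSS2 at 2.87 and 1.91, FKBP5 at 2.97 and 1.30 and C1orf116 at 1.65 and 1.09 lie past 2-fold in both.

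**Figure D4:**
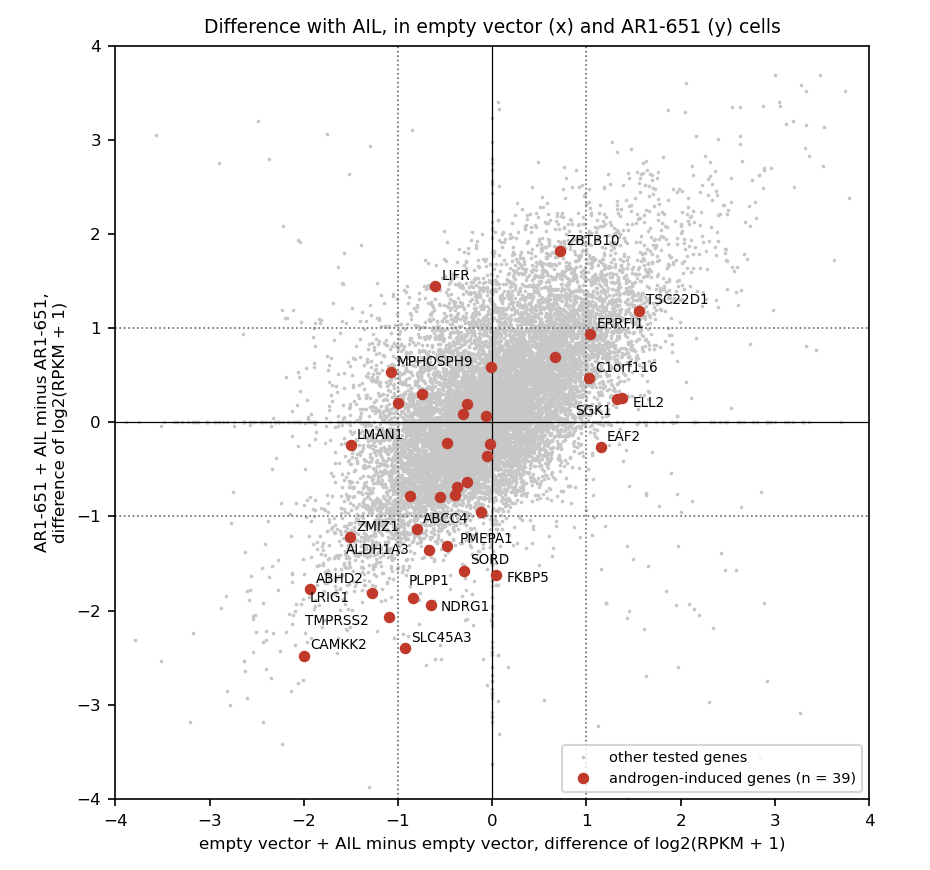
Difference of log2(RPKM + 1) with AIL in empty vector cells (horizontal) and in cells labelled AR1-651 (vertical), drawn as in the plot of AR1-651 differences. CAMKK2 at -1.99 and -2.48 and ABHD2 at -1.93 and -1.77 are low in both, FKBP5 at 0.04 and -1.63 is low only in the AR1-651 pair, and TSC22D1 at 1.56 and 1.19 is high in both.

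The 2 comparisons of AIL share no library. At any size, 22 of the 39 genes were lower in both and 7 higher in both, which is 56.4% and 17.9%, against 32.2% and 38.0% of all genes. The 5 members called lower in both were ABHD2, CAMKK2, LRIG1, TMPRSS2 and ZMIZ1, against 2.93% of all genes. SLC45A3 was called lower only in the AR1-651 pair, and its difference with AIL in empty vector cells was -0.93. Its RPKM ratio there, 0.449, was below the 0.452 of TMPRSS2, so its place depends on the log2(RPKM + 1) scale. CAMKK2, LRIG1, ABHD2 and ZMIZ1 were also lower in the library labelled AR1-651 + AIL than with untreated empty vector, at -1.69, -1.70, -2.18 and -1.68. This comparison reuses libraries of both AIL comparisons and is no separate observation. In it 12.8% of the androgen-induced genes were called lower, against 15.8% of all genes. The call of ZMIZ1 there was lost at -0.80 when the length and GC trends were removed.

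Transcript length and base composition moved with the differences. The androgen-induced genes had longer transcripts than all genes, with a median of 4201 against 2561 nt, and a lower GC content, with a median of 44.7% against 49.6%. Across 14005 genes, which share 4 libraries and are not independent replicates, the difference with AR1-651 without AIL fell with length (Spearman's rho -0.41), and the difference between AR1-651 + AIL and empty vector + AIL fell with GC content (rho -0.61). With these trends removed, 18 members were higher and 0 lower with AR1-651 without AIL, against 4.75% and 3.81% of all genes, and the median with AIL in both arms was 0.44. Their part in single differences was not tested beyond this.

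Other genes of the androgen pathway were counted in 2 further lists. Of 55 further androgen-response genes that passed, 13 were higher and 2 lower with AR1-651 without AIL, with a median of 0.26. This is 23.6% and 3.64%, against 4.01% and 11.6% of all genes, whose median was -0.30. The largest rises were those of DBI, which binds acyl-CoA, of 2.06, and AZGP1, a secreted zinc-binding glycoprotein, of 2.01, and the largest falls those of the amino acid transporter SLC38A2, of -1.18, and the kinase PTK2B, of -1.12. With AIL in the AR1-651 pair, 14 were lower, or 25.5% against 5.74% of all genes, and 7 were higher, or 12.7%, near the 14.9% of all genes. Between the AIL arms 1 was higher, or 1.82%, near the 1.46% of all genes, and 0 were lower, against 3.53%. The median there was 0.19, against -0.03 for all genes.

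Of 8 genes known to be lowered by androgen, 0 were higher and 2 lower with AR1-651, against 4.01% and 11.6% of all genes, with a median of -0.71 against -0.30. The 2 were CAMK2N1, an inhibitor of a calcium-dependent kinase, and UGT2B15, which inactivates androgens by glucuronidation, both at -1.30, and the highest values were 0.36 for FOLH1, the prostate-specific membrane antigen, and 0.17 for ACKR3, a chemokine receptor. With AIL in the AR1-651 pair, 1 of the androgen-lowered genes was higher, or 12.5%, near the 14.9% of all genes, and 0 were lower, with a median of 0.26 against 0.13.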

How the data were processed

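LNCaP RNA was sequenced in 4 conditions, 1 library each, and conditions were taken from the sample labels. The authors deposited RPKM values per gene, rounded to 2 decimals. The submitters' processing notes name BWA 0.7.10-r789 and hg19, and the counting tool is not given in the sources used here. RPKM is scaled to mapped reads and transcript length, so genes that take more of the reads lower the others. The read depth is unknown, since reads could not be recovered from RPKM, so the precision it gives cannot be stated.

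Differences of log2(RPKM + 1) were computed in pandas 2.3.3 and NumPy 2.4.6 under Python 3.11.15, rank correlations in SciPy 1.17.1. Genes under 1 RPKM throughout were dropped, and changes were called at 2-fold. Symbols came from a RefSeq table of GRCh38.p14 by Entrez Gene identifier (19703 matched), where 8 entries held RefSeq identifiers instead. Transcript length and GC content came from GENCODE release 29, and promoters, found for 29 of 39 members, from RefSeq. The scripts were tested on simulated data. Full values are given for members called in any of the first 4 comparisons, and for each further list the 2 largest rises and falls with AR1-651. The members and lists were chosen with earlier results of these data known. Alternatives were median-ratio scaling, a pseudocount of 0.1, a filter at 5 RPKM or none, calls at 1.5-fold, ribosomal protein genes left out, and removal of a polynomial trend of degree 3 in the ranks of length and GC content. Some genes, and a further list that was counted, are not reported here.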

Additional observations from a re-analysis of the deposited data

Results flagged for a closer look

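In 10 of the 39 androgen-induced genes, AIL went with a higher level in one kind of cell and a lower level in the other, so that the differences with AIL had opposite signs. This is 25.6% of them, no larger a share than the 27.8% of all genes. With 1 library per condition this was not tested. The values below are the difference with AIL in the pair labelled AR1-651 minus that in empty vector cells, on the log2(RPKM + 1) scale. It was -1.67 for FKBP5 and -1.42 for EAF2, the 2 genes in which AIL went with a lower level only in the AR1-651 pair. It was above 0 for the other 8, in which AIL went with a lower level only in empty vector cells: 2.05 for LIFR, 1.61 for MPHOSPH9, 1.20 for ELK4, 1.05 for UAP1, 0.60 for IQGAP2, 0.46 for VAPA, 0.40 for ACSL3 and 0.14 for MAK. Several of these rest on differences near 0 in one kind of cell, such as 0.04 for FKBP5 with empty vector.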

How the results depend on the processing

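No paired analysis was possible because each condition has 1 library and no test was made. Of 59 calls of members over the 5 comparisons, 46 were kept in every alternative at the 2-fold threshold, and none changed direction. The number higher with AR1-651 without AIL, 11, became 17 with median-ratio scaling, 18 with length and GC trends removed and 20 at 1.5-fold, and the number lower, 2, became 1 with median-ratio scaling and 0 with the trends removed. Of all genes, 7.29%, 4.75% and 10.7% were then higher, and 5.59% and 3.81% lower. With AIL in both arms, the number higher with AR1-651, 4, became 7 with a pseudocount of 0.1 and 15 at 1.5-fold, against 3.48% and 7.73% of all genes. For AIL in the AR1-651 pair, the number higher, 3, became 5 at 1.5-fold and 1 with the trends removed, against 28.6% and 8.25%. At 1.5-fold, 16 were lower with AIL in empty vector cells, against 22.1% of all genes, and 9 were lower with AR1-651 + AIL than with empty vector, against 29.2%. The cause was not tested, except that a lower threshold calls more genes by construction. Without replicates, and at unknown depth, levels near 1 RPKM, such as those of TRPM8, IQGAP2, MAK and NNMT, are the least certain.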

Other observations

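Some members lie close together in the genome. Counting only genes of the RefSeq table with a value in these data, ELK4 and SLC45A3 are neighbours on chromosome 1, with 0 genes between them. Their differences with AR1-651 without AIL were -1 and 2.25, and with AIL in the AR1-651 pair 0.20 and -2.40. TPD52 and ZBTB10 on chromosome 8 have 0 such genes between them, and their differences with AIL in the AR1-651 pair were -0.69 and 1.82. B2M and SORD on chromosome 15 have 2 such genes between them, and their differences with AR1-651 without AIL were 0.93 and 1.55.

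Of the neuroendocrine markers CHGA, SYP and NCAM1, SYP stood at 0.88 RPKM with empty vector and 4.98 after AIL, and at 2.50 with AR1-651 and 4.49 after AIL. CHGA was at most 0.09 RPKM and NCAM1 at most 0.17 in any library. The part of SYP in any difference of the androgen-induced genes was not tested.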
